A study of Mus musculus with 8 samples.

Results

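The 10 imprinted genes described here, H19, Igf2, Dlk1, Meg3, Mest, Peg3, Plagl1, Cdkn1c, Grb10 and Ndn, were taken by gene name from a table of 55401 genes. All 10 were among the 16894 genes tested, those averaging at least 0.5 FPKM, which are reads scaled by gene length and library size. They were chosen by membership of the imprinted growth network, with results of PLX3397 against vehicle in the same libraries already known. Their difference between these groups is therefore given as a description with no test, and tests are kept for sex, for treatment by sex and for other genes. Gene expression was measured by RNA sequencing of hypothalami at postnatal day 19, from 4 pups gavaged with PLX3397 between days 9 and 15 and from 4 vehicle-gavaged pups, with 2 females and 2 males in each group. PLX3397 is an inhibitor of the CSF1 receptor, on which microglia depend for survival, and the study asked what the loss of microglia in that window does to the developing hypothalamus. Collection came 4 days after the last gavage, so the values show the tissue after dosing had ended. The labels name no strain, genotype or vehicle, and they do not say whether tissue of several pups was pooled.

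An imprinted gene is expressed mainly from the copy inherited from 1 parent, under DNA methylation set in that parent's germ line. Paternally expressed genes of the growth network, among them Igf2, Dlk1, Mest, Peg3 and Plagl1, tend to promote growth or maternal provision, whereas the maternally expressed H19 and Cdkn1c restrain growth. Many of these genes are switched down after birth in most tissues, and several stay on in the mouse hypothalamus. Counts per gene do not tell the parental copies apart, so every value below is the sum of both. The parental copy named for a gene is its general pattern unless a tissue is given. Which copy was in use in these hypothalami was not measured.

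Some of the transcripts also carry small RNAs, and the sequences below are shown because the host transcripts are among the genes described. According to RefSeq (GRCm38.p6), 9 mature miRNAs lie on the same strand within the spans of H19, Igf2, Meg3 and Mest, and the 9 have different seeds. Those of H19, Igf2 and Mest are printed 5′ to 3′ with the seed, bases 2 to 8, in capitals. Mature miRNAs were not measured in these libraries.
mmu-miR-675-5p (H19, chr7:142577112-142577133, minus strand): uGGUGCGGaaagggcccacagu
mmu-miR-675-3p (H19, chr7:142577078-142577099, minus strand): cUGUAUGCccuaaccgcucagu
mmu-miR-483-5p (Igf2, chr7:142654968-142654989, minus strand): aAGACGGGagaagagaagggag
mmu-miR-483-3p (Igf2, chr7:142654932-142654952, minus strand): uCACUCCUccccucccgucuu
mmu-miR-335-5p (Mest, chr6:30741314-30741336, plus strand): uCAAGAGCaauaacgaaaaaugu
mmu-miR-335-3p (Mest, chr6:30741354-30741375, plus strand): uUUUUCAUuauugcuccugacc

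Igf2 starts at several promoters. The RefSeq table (GRCm38.p6) holds 15 promoters for 8 of the 10 genes, each running from 250 bases before a start to 50 bases after it, and none for H19 or Cdkn1c. The CpG-richest and the CpG-poorest Igf2 window are printed 5′ to 3′ with each CpG, the kind of site where DNA is methylated, in capitals. They are promoter windows, and the imprinting control region that Igf2 shares with H19 is not printed.
Igf2 start site 3 (chr7:142658755-142659054, minus strand): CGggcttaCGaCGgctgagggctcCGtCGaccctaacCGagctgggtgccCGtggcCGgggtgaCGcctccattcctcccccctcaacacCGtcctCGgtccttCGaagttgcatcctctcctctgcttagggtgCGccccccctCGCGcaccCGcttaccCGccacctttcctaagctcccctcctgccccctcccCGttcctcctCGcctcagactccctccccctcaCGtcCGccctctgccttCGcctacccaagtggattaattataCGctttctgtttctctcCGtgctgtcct
Igf2 start site 1 (chr7:142666767-142667066, minus strand): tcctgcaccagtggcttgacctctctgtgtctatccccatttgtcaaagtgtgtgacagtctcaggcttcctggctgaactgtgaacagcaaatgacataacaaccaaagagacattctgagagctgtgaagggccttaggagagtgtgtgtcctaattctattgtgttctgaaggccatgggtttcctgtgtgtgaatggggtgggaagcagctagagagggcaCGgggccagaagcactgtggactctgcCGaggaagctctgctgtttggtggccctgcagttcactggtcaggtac
Start site 3 holds 24 CpGs and start site 1 holds 2, against a median of 7 over the 32851 promoters of the table. The counts are per gene and do not show which start was used. The CpG-richest member promoter was 1 of the 2 of Grb10, with 45 CpGs. Methylation was not measured. GGGGCCCC, a motif known for PLAGL1, was found on either strand in 1 of the 15 windows, that of Peg3, against 1.08% of all promoters; its reverse complement is the same sequence. AANATGGC, a motif of the factor YY1, was found in 0 of 15 on either strand, against 6.05%. TATAAA, the TATA box, was found on either strand in 1, a Meg3 window, against 13.6%. A match is a description of the letters, not of a bound site.

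The libraries held 55900335 to 67487391 counts in PLX3397 pups and 54115300 to 60001808 counts in vehicle pups. A gene with 0 reads could have had up to 3, equal to 0.0445 to 0.0554 CPM, by counting error alone. CPM are a gene's reads scaled to the library's total. Summed over 8 microglial markers, PLX3397 libraries held 23.3 to 43.3 CPM and vehicle libraries 234 to 255 CPM, and 6 of the 8 markers fell by edgeR's quasi-likelihood test with Benjamini-Hochberg adjustment over all tested genes. In the same fit 4 of 8 oligodendrocyte markers fell, with sums of 2040 to 4645 CPM in PLX3397 and 6028 to 9140 CPM in vehicle. The source field reads brain, and 12 markers of hypothalamic and other neurons, among them Agrp, Pomc and Hcrt, summed to 2683 to 3167 CPM in PLX3397 and 2624 to 3497 CPM in vehicle. The library of vehicle female 1 stood apart. It held 2641 CPM of Gh, the growth hormone gene of the pituitary, against at most 0.862 CPM in any other library, and 10 pituitary markers summed to 3156 CPM there, against 35.4 to 52.7 CPM in PLX3397 libraries and 23.8 to 41.2 CPM in the other vehicle libraries.

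The 10 genes span a wide range of expression. On the FPKM scale, which divides by gene length and library size and so allows levels of different genes to be compared, Meg3 stood highest at 361 to 409 FPKM in 8 libraries. Ndn at 127 ± 13.5 FPKM (SD, n = 8) and Peg3 at 115 ± 11.3 FPKM overlapped each other. Dlk1 followed at 46.6 ± 2.32 FPKM. Grb10 at 29.6 ± 1.13 and Igf2 at 26.9 ± 8.09 FPKM overlapped, as did Plagl1 at 10.7 ± 1.26 and Mest at 7.92 ± 5.36 FPKM. The second overlap rests on vehicle female 1 alone, at 21.2 FPKM of Mest, since the other 7 libraries held 5.48 to 6.72 FPKM of Mest, below every Plagl1 value. Cdkn1c at 3.35 ± 0.540 FPKM and H19 at 0.954 ± 0.359 FPKM closed the order, each without overlap with its neighbour. H19 and Igf2 lie next to each other and share enhancers, and their levels per length were far apart in every library.

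**Figure D1:**
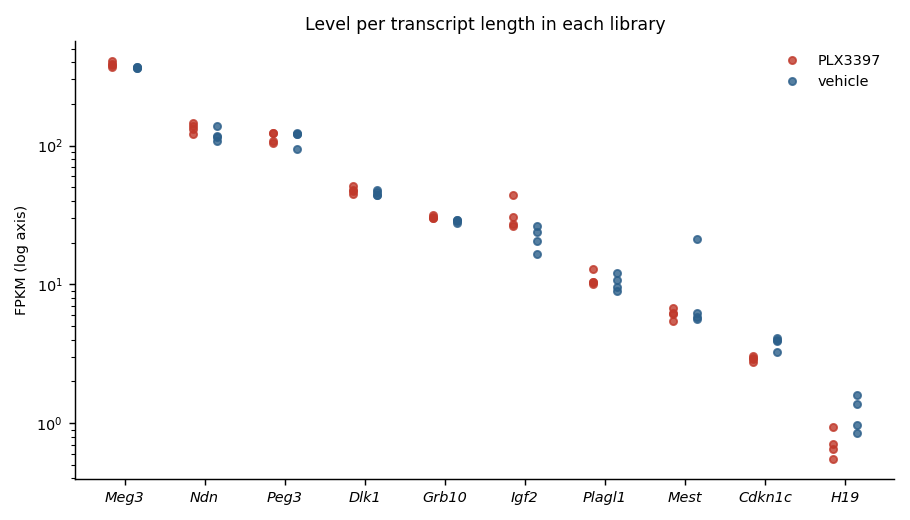
FPKM of each gene (log axis) in 4 PLX3397 libraries (red, left) and 4 vehicle libraries (blue, right), genes ordered by mean, 1 point per library. Meg3 lies at 361 to 409 FPKM, H19 at 0.553 to 1.58 FPKM, and 1 vehicle library stands out for Mest at 21.2 FPKM.

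Between the treatment groups most of the 10 genes lay close together, and the widest differences were those of H19 and Igf2. The log2 fold changes of PLX3397 over vehicle ran from −0.74 for H19 to 0.57 for Igf2, with 7 positive and 3 negative. Their median was 0.081, against −0.0025 over all tested genes, and the median size without sign was 0.14 against 0.11. Of the 10 genes, 0 passed an adjusted p of 0.05 in edgeR, against 2.14% of all tested genes; limma-trend on FPKM also called 0, and DESeq2 called 2, Igf2 and Cdkn1c, against 6.49%. Before adjustment 5 were under 0.05 in edgeR, namely Igf2, Meg3 and Grb10 with positive and H19 and Cdkn1c with negative fold changes, against 16.2% of all tested genes. In 3 genes, Igf2, Meg3 and Grb10, all 4 PLX3397 libraries lay above all 4 vehicle libraries, against 4.85% of all tested genes, and in 1, Cdkn1c, all 4 lay below, against 6.32%. Because the genes were selected with this contrast known, nothing is read from these counts. In bulk tissue, fewer cells of a type and less RNA per cell cannot be told apart.

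**Figure D2:**
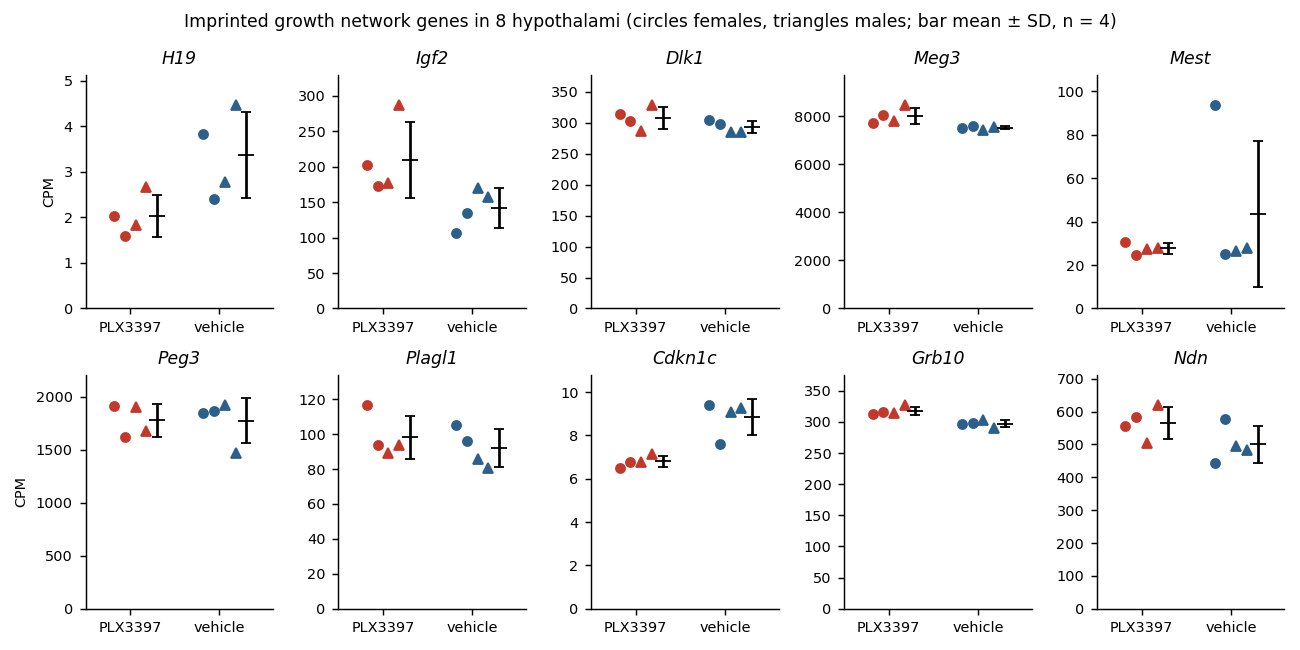
TMM-normalised CPM of each gene in 4 PLX3397 libraries (left) and 4 vehicle libraries (right), circles females, triangles males, bars mean ± SD. Igf2, Meg3 and Grb10 do not overlap and are higher in PLX3397, Cdkn1c does not overlap and is lower, and the vehicle Mest mean is carried by 1 female at 93.7 CPM.

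Igf2, the secreted insulin-like growth factor that acts through the IGF1 and insulin receptors, is expressed in mouse brain mainly by the meninges and choroid plexus. It measured 202, 173, 177 and 287 CPM in PLX3397 females 1 and 2 and males 1 and 2, against 106, 135, 171 and 157 CPM in the vehicle libraries in the same order. The groups did not overlap, but the lowest PLX3397 library, at 172.6 CPM, lay just above the highest vehicle library, at 170.7 CPM. The means were 210 ± 53.2 CPM in PLX3397 and 142 ± 28.3 CPM in vehicle (SD, n = 4 each), a log2 fold change of 0.57 ± 0.15 (SE), or 1.48-fold. It was 0.64 ± 0.23 within females and 0.50 ± 0.23 within males. PLX3397 male 2 was the highest library and vehicle female 1 the lowest. Without these 2 libraries together, the log2 fold change was 0.30 ± 0.11. The gene lies on chromosome 7 at 142650766 to 142666816 (mm10, minus strand), where the antisense gene Igf2os overlaps it with counts equal to 0.579% of its own.

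Some meningeal fibroblast markers were also higher in PLX3397. The 12 listed genes summed to 296 to 370 CPM in PLX3397 libraries and 220 to 306 CPM in vehicle libraries, so the sums overlapped. In the library order used for Igf2, the sums were 335, 296, 320 and 370 CPM in PLX3397 and 226, 220, 263 and 306 CPM in vehicle. Of the 12, 4 rose by edgeR's test, the transporters Slc6a13 and Slc6a20a, the retinoic acid-making enzyme gene Aldh1a2 and the transcription factor gene Tbx18, and none of the 12 was at 0 in any library. The other 8 did not pass in edgeR. Their log2 fold changes were 1.17 ± 0.32 for Lum, 0.87 ± 0.20 for Dcn, 0.53 ± 0.15 for Col3a1 and 0.27 ± 0.12 for Foxc1. Col1a1 had −0.32 ± 0.17, Col1a2 −0.012 ± 0.088, Slc22a6 0.00097 ± 0.18 and Crabp2 0.019 ± 0.20. Of the 12, 10 were positive and 2 negative, with a median of 0.44. DESeq2 called 7 of the 12, among them Lum, Dcn and Col3a1, against 6.49% of all tested genes. Slc6a20a averaged 58.5 ± 5.97 CPM in PLX3397 and 33.9 ± 5.31 CPM in vehicle (adjusted p = 0.0147). Of 8 choroid plexus markers, 5 were tested and 0 passed in edgeR or DESeq2, with 1 under 0.05 before adjustment in edgeR. The 8 summed to 51.0 to 65.3 CPM in PLX3397 and 45.8 to 62.2 CPM in vehicle. Ttr held only 2.10 to 2.92 CPM in PLX3397 and 1.19 to 4.49 CPM in vehicle, and Folr1, Slc4a5 and Otx2 were too low to be tested. Prlr, Kl and Clic6 averaged 21.2, 16.4 and 15.7 CPM in PLX3397 and 18.7, 14.9 and 12.9 CPM in vehicle. The part of either tissue in the Igf2 difference was not tested.

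H19, the maternally expressed noncoding RNA that shares its imprinting control region with Igf2, ran the other way. Its values were 2.04, 1.59, 1.84 and 2.66 CPM in the PLX3397 libraries and 3.84, 2.41, 2.77 and 4.47 CPM in the vehicle libraries. The groups overlapped, since PLX3397 male 2 lay above vehicle female 2. The means were 2.03 ± 0.460 CPM in PLX3397 and 3.37 ± 0.951 CPM in vehicle, a log2 fold change of −0.74 ± 0.24, with −0.79 ± 0.37 in females and −0.69 ± 0.37 in males. These levels rest on 102 to 148 reads per PLX3397 library and 141 to 268 per vehicle library. H19 spans chromosome 7 from 142575529 to 142578143 on the minus strand, and the mature arms of miR-675 printed above lie within it. Of the other listed genes of the domain, 2 were tested, Mrpl23 with a log2 fold change of −0.071 ± 0.058 and Lsp1 with −0.35 ± 0.26, and neither passed in edgeR or DESeq2.

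The ratio of these neighbours, a quantity chosen after their values were seen, was 99.3, 109, 96.0 and 108 Igf2 counts per H19 count in the PLX3397 libraries. It was 27.5, 56.0, 61.6 and 35.1 in the vehicle libraries, which spread more widely and lay below every PLX3397 library. The means were 103 ± 6.32 in PLX3397 and 45.1 ± 16.3 in vehicle. The same ratio for the Dlk1 and Meg3 pair, 0.0385 ± 0.00176 Dlk1 counts per Meg3 count in PLX3397 and 0.0390 ± 0.00122 in vehicle, overlapped between the groups.

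**Figure D3:**
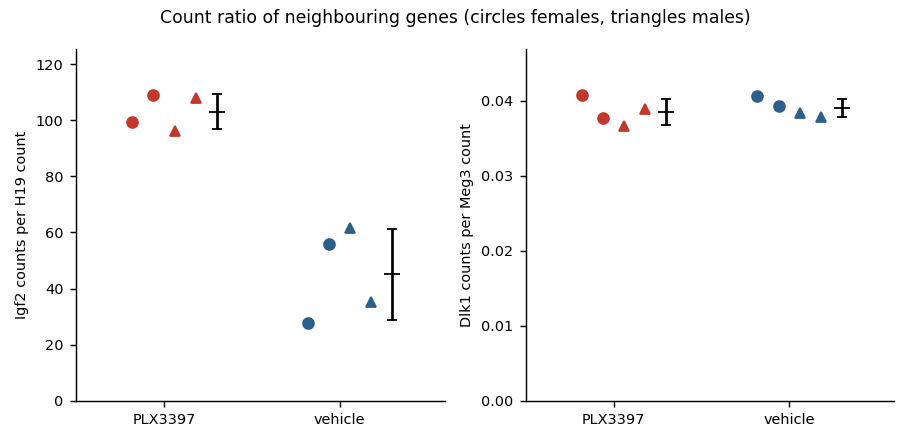
Igf2 counts per H19 count (left panel) and Dlk1 counts per Meg3 count (right panel) in 4 PLX3397 and 4 vehicle libraries, circles females, triangles males, bars mean ± SD. The first ratio is 96.0 to 109 in PLX3397 and 27.5 to 61.6 in vehicle, and the second overlaps.

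Dlk1 and Meg3 share an imprinted domain on chromosome 12. Dlk1, a transmembrane protein of the Notch ligand family that is expressed from the paternal copy, spans 109452823 to 109463336 on the plus strand. It measured 314, 303, 286 and 329 CPM in PLX3397 libraries, against 304, 299, 285 and 285 CPM in vehicle libraries, and the groups overlapped. Its log2 fold change was 0.072 ± 0.047. Meg3, the long noncoding RNA expressed from the maternal copy, spans 109541001 to 109571721 on the same strand. It measured 7711, 8051, 7816 and 8465 CPM in PLX3397 libraries, against 7498, 7595, 7437 and 7542 CPM in vehicle libraries. The vehicle libraries lay within a narrow band, and all 4 PLX3397 libraries were above it. With means of 8011 ± 335 CPM in PLX3397 and 7518 ± 67.0 CPM in vehicle, the log2 fold change was 0.091 ± 0.033. Of 6 listed partners of the domain, 5 were tested and had positive log2 fold changes. In edgeR and DESeq2 0 of them passed, with 1 under 0.05 before adjustment in edgeR. Dio3, too low to be tested, went the other way, at 0.480 ± 0.171 CPM in PLX3397 and 0.905 ± 0.231 CPM in vehicle. Wars, 1 of the 5, had a log2 fold change of 0.20 ± 0.30. Among the tested partners Mirg, the noncoding transcript that hosts a miRNA cluster, had 0.20 ± 0.068 (adjusted p = 0.214). Rian, which hosts snoRNAs and miRNAs, had 0.10 ± 0.044 (adjusted p = 0.317). Rtl1, a retrotransposon-derived gene needed in the placenta, had 0.13 ± 0.067 (adjusted p = 0.391).

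Ndn encodes necdin, a MAGE family protein that restrains cell division and supports the survival of neurons, and lies in the domain equivalent to the human Prader-Willi region (chromosome 7, 62346569 to 62350262, plus strand). It measured 555, 583, 505 and 619 CPM in PLX3397 libraries and 444, 579, 497 and 484 CPM in vehicle libraries. The groups overlapped, and vehicle female 1 was the lowest library. The log2 fold change was 0.18 ± 0.092, and without vehicle female 1 and PLX3397 male 2 it was 0.014 ± 0.039. Of its 8 listed partners, 7 were tested and 6 had positive log2 fold changes, with 0 passing in edgeR, 2 under 0.05 before adjustment and 1 passing in DESeq2. That gene was Snrpn, a splicing protein gene of the domain, at 814 ± 31.0 CPM in PLX3397 and 750 ± 8.64 CPM in vehicle, with a log2 fold change of 0.12 ± 0.029 and an adjusted p of 0.104 in edgeR and 0.0364 in DESeq2. Its reads cannot be told with certainty from those of Snurf, which shares its transcript. Magel2, the MAGE family neighbour whose loss in mice alters hypothalamic function, had 0.075 ± 0.075 (adjusted p = 0.68).

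Cdkn1c encodes an inhibitor of cyclin-dependent kinases and is expressed from the maternal copy (chromosome 7, 143458339 to 143461050, minus strand). It measured 6.51, 6.76, 6.78 and 7.14 CPM in PLX3397 libraries, against 9.38, 7.62, 9.09 and 9.28 CPM in vehicle libraries. The 4 PLX3397 values lay close together and below all vehicle values, of which female 2 was the lowest. The means were 6.80 ± 0.260 CPM in PLX3397 and 8.84 ± 0.826 CPM in vehicle, a log2 fold change of −0.38 ± 0.096. It was −0.36 ± 0.14 in females and −0.40 ± 0.14 in males. Of its 9 listed partners, 4 were tested and 0 passed in edgeR, with 2 under 0.05 before adjustment and 1, Cd81, passing in DESeq2. Cd81, a tetraspanin gene, averaged 344 ± 23.1 CPM in PLX3397 and 400 ± 19.7 CPM in vehicle (log2 fold change −0.22 ± 0.058, adjusted p = 0.124 in edgeR and 0.0369 in DESeq2). Tssc4 had −0.25 ± 0.082 (adjusted p = 0.193 in edgeR).

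Grb10, an adaptor that damps insulin and IGF1 receptor signalling, is expressed in mice from the paternal copy in neurons and from the maternal copy in most other tissues. It spans chromosome 11 from 11930508 to 12037401 on the minus strand. Its values were 312, 315, 315 and 327 CPM in PLX3397 libraries and 297, 298, 303 and 290 CPM in vehicle libraries. Both groups were narrow and did not overlap, with means of 317 ± 6.29 CPM in PLX3397 and 297 ± 5.28 CPM in vehicle. The log2 fold change was 0.095 ± 0.029, a small difference seen at 0.079 to 0.11 when any single library was left out. Its tested neighbours Ddc and Cobl had −0.051 ± 0.092 and −0.070 ± 0.059, and neither passed in edgeR or DESeq2.

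Mest, which encodes a hydrolase-fold enzyme of the endoplasmic reticulum and is expressed from the paternal copy, depended on 1 library. It measured 30.6, 24.8, 27.3 and 27.9 CPM in PLX3397 libraries and 93.7, 25.3, 26.4 and 28.1 CPM in vehicle libraries. Vehicle female 1 was 3.52 times the mean of the other 3 vehicle libraries, 26.6 ± 1.39 CPM, and it is the library with the pituitary transcripts. The log2 fold change was −0.54 ± 0.41 with all libraries and 0.068 without vehicle female 1, so its sign turned. Within sexes it was −1.10 ± 0.52 in females and 0.020 ± 0.52 in males. The 10 pituitary markers gave 9 tested genes, of which 0 passed in edgeR, with 2 under 0.05 before adjustment, and 3 passed in DESeq2; Fshb was at 0 in the 7 other libraries. The part of pituitary tissue in the Mest value was not tested. Mest (chromosome 6, 30723547 to 30748462, plus strand) overlaps Copg2 on the opposite strand over 909 bases, and without strand information reads there cannot be told apart. Copg2 had a log2 fold change of 0.041 ± 0.053.

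Peg3 and Plagl1 encode zinc-finger transcription factors expressed from the paternal copy, and Plagl1 has been reported in mice to control other genes of this network. Peg3 (chromosome 7, 6703892 to 6730421, minus strand) measured 1918, 1616, 1909 and 1677 CPM in PLX3397 libraries, against 1850, 1867, 1919 and 1465 CPM in vehicle libraries. The groups overlapped, and the log2 fold change was 0.0053 ± 0.097. Its sign turned without PLX3397 female 1 (−0.032), PLX3397 male 1 (−0.047) or vehicle male 2 (−0.083). Plagl1 (chromosome 10, 13060504 to 13130982, plus strand) measured 116, 93.9, 89.2 and 93.6 CPM in PLX3397 libraries, against 106, 96.3, 86.0 and 80.7 CPM in vehicle libraries. These groups overlapped too, and females lay above males of their own group. The log2 fold change was 0.096 ± 0.073. Of the tested neighbours, Zim1 beside Peg3 had 0.27 ± 0.12 (adjusted p = 0.331), and Phactr2 beside Plagl1 had 0.061 ± 0.040 (adjusted p = 0.514).

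**Figure D4:**
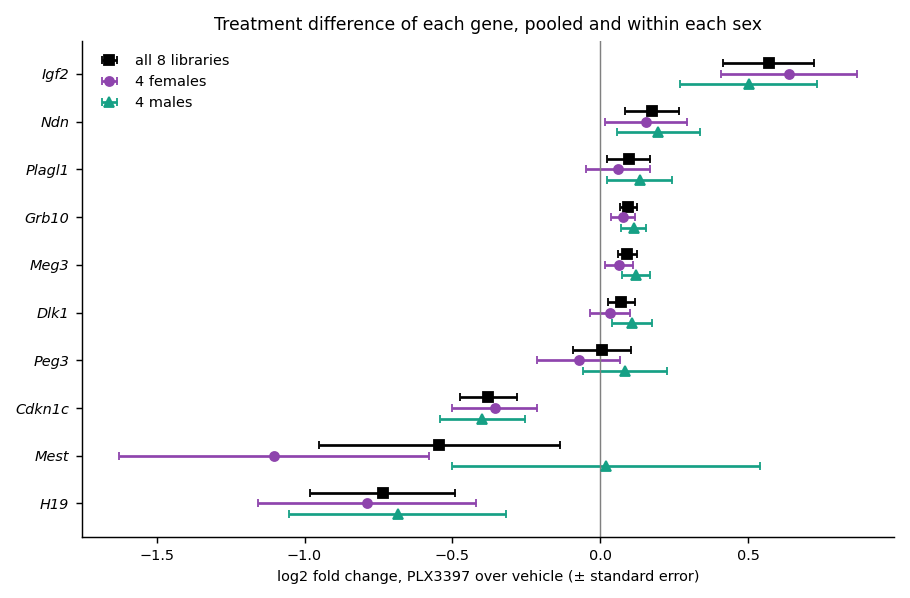
Log2 fold change of PLX3397 over vehicle (x axis, ± SE) for each gene, pooled over 8 libraries and within females and males. H19 and Cdkn1c are negative and Igf2 is positive in both sexes, and Mest is −1.10 in females and 0.020 in males.

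The comparison of the sexes did not enter the choice of genes. Of the 10 genes, 0 passed for females against males in edgeR or DESeq2, against 0.0592% of all tested genes in edgeR, which is 10 genes. Before adjustment 2 were under 0.05, Plagl1 and Igf2, against 4.99% of all tested genes. Plagl1 averaged 103 ± 10.3 CPM in females and 87.4 ± 5.43 CPM in males, a log2 fold change of 0.24 ± 0.073 (edgeR adjusted p = 0.933). Igf2 averaged 154 ± 42.3 CPM in females and 198 ± 60.0 CPM in males, a log2 fold change of −0.38 ± 0.15 (edgeR adjusted p = 0.933). Over the 10 genes the adjusted p ran from 0.933 to 0.973. For the difference of the treatment effect between females and males, 0 of 10 passed in edgeR, against 0.077% of all tested genes, which is 13 genes. DESeq2 also called 0 of the 10, against 144 of all tested genes. Before adjustment 0 of the 10 were under 0.05 in edgeR, and the matching share of all tested genes was not computed. The widest such difference was that of Mest, with a log2 difference of −1.12 ± 0.74 (adjusted p = 0.861, edgeR). The treatment fold change had the same sign in both sexes in 8 of the 10 genes, the exceptions being Mest and Peg3. Results of PLX3397 against vehicle, on which this count rests, were known when the genes were chosen. No share over all tested genes was computed for it, so nothing is read from it.

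Other imprinted genes and the domain partners of the members were described together. The joint list of 83 symbols holds 40 other imprinted genes and 43 domain partners, which were listed as neighbours. Of the 83, 82 were in the table and 65 were tested. The 40 alone gave 37 tested genes, 27 with positive and 10 with negative log2 fold changes and a median of 0.040. Of these 37, 0 passed in edgeR, 8 were under 0.05 before adjustment and DESeq2 called 1. The values that follow are for the joint list. In edgeR 0 rose and 0 fell, 14 were under 0.05 before adjustment, and DESeq2 called 3. Of the 65, 44 had positive and 21 negative log2 fold changes, with a median of 0.042 against −0.0025 over all tested genes. The 4 with the smallest p were Dcn, Snrpn, Cd81 and Inpp5f. Dcn encodes the matrix proteoglycan decorin, is also among the meningeal markers, and measured 44.7, 35.4, 36.5 and 42.9 CPM in PLX3397 libraries, against 28.0, 14.3, 21.6 and 23.5 CPM in vehicle libraries. The groups did not overlap, and the log2 fold change was 0.87 ± 0.20 (adjusted p = 0.0852 in edgeR and 0.000383 in DESeq2). Without vehicle female 1, Dcn alone of the 65 passed in edgeR. Inpp5f, an inositol phosphatase gene, had 0.11 ± 0.031 (adjusted p = 0.143). Igf2r, the maternally expressed receptor that takes up IGF2 for breakdown, averaged 86.2 ± 2.49 CPM in PLX3397 and 83.7 ± 1.31 CPM in vehicle (log2 fold change 0.042 ± 0.036, adjusted p = 0.621).

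**Figure D5:**
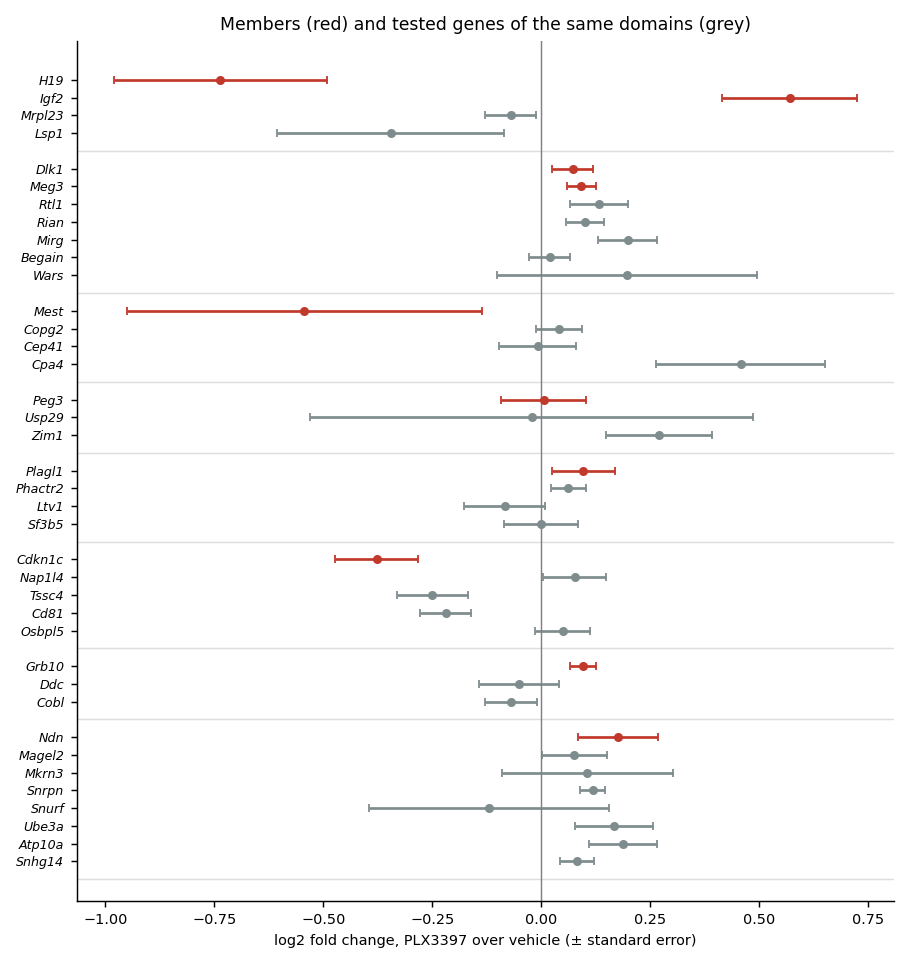
Log2 fold change of PLX3397 over vehicle (x axis, ± SE) for the 10 genes (red) and the tested genes of their domains (grey), grouped by domain. The 5 tested partners of Dlk1 and Meg3 all lie above 0 and 0 of the 28 tested domain partners passed in edgeR, with 6 under 0.05 before adjustment and 2 passing in DESeq2.

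Of the IGF pathway, 13 of 17 listed genes were tested and 0 passed in edgeR or DESeq2, with 0 under 0.05 before adjustment and a median log2 fold change of −0.062. The 4 smallest p belonged to the adaptor genes Irs4, with 0.16 ± 0.071 (adjusted p = 0.319), and Irs2, with 0.16 ± 0.085 (adjusted p = 0.413), to the binding protein gene Igfbp3, with 0.35 ± 0.20 (adjusted p = 0.434), and to the binding protein gene Igfbp6, with 0.25 ± 0.15 (adjusted p = 0.451). Igf1, the other IGF ligand, is not among these 4, was named after its value was seen and had −0.22 ± 0.14 (adjusted p = 0.508). Without vehicle female 1, Igfbp3 passed in edgeR. Of 14 Notch pathway genes, all tested, 0 passed in edgeR, 2 were under 0.05 before adjustment and DESeq2 called 1, with a median of −0.051. That gene was the receptor Notch1, at 48.4 ± 2.14 CPM in PLX3397 and 64.0 ± 9.87 CPM in vehicle (log2 fold change −0.40 ± 0.10, adjusted p = 0.116 in edgeR and 0.0104 in DESeq2), and it passed in edgeR without vehicle female 1. Dlk2, the paralogue of Dlk1, had 0.15 ± 0.052 (adjusted p = 0.226). Another list of 17 genes held genes that set or read imprints, together with Plag1 and Plagl2. Of the 17, 11 were tested, 10 with positive log2 fold changes and a median of 0.025. In edgeR and DESeq2 0 passed, and 1, the DNA methyltransferase gene Dnmt3a, was under 0.05 before adjustment in edgeR (−0.61 ± 0.23, adjusted p = 0.252).

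The genes whose pattern over the 8 libraries was most like that of a member were found by the root mean square difference of centred log2 CPM, where 0 is an identical pattern. For Igf2, whose own spread on this scale was 0.39, they were Olfml2a at 0.15, Sptssb at 0.17 and Rgs14 at 0.18. For H19, with a spread of 0.48, they were Gm38317 at 0.20, Gsdmd at 0.20 and Tmem52 at 0.21. For Dlk1, with a spread of 0.069, they were Eif5b at 0.025, Sub1 at 0.028 and Ctxn1 at 0.028. For Ndn, with a spread of 0.15, they were Shisa9 at 0.032, Grhl1 at 0.050 and Arhgap6 at 0.052. These are descriptions with no test, over 8 libraries that include both treatments, so a shared difference between the treatments adds to the likeness.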

How the data were processed

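Total RNA of 8 hypothalami was depleted of ribosomal RNA and reverse transcribed from random primers, per the labels' protocols. For each gene the authors deposited a raw count and an FPKM value per library, per the file headers, with 0 reads listed at 0.0001 FPKM. HISAT2, StringTie, DESeq2, limma, bcl2fastq 2.0 and the mm10 build are named in the submitters' processing notes. Strandedness and the counting tool: not given in the sources used here.

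From the deposited counts, genes averaging 0.5 FPKM or more over the 8 libraries were tested in R 4.3.3 with edgeR 4.0.16 (TMM scaling, quasi-likelihood F-test, sex as a covariate, two-sided, Benjamini-Hochberg adjustment over 16894 genes, threshold 0.05). The contrasts were PLX3397 against vehicle, females against males, and treatment by sex. Each SE was taken as the size of the fitted log2 difference over the root of its F statistic. CPM are TMM-normalised. DESeq2 1.42.0 and limma-trend (limma 3.58.1) on log2 FPKM were alternatives, as were other filters and scalings, no sex term, a replicate block and leaving out libraries. Only the main edgeR fits of these contrasts were run on simulated data before use, not the alternatives, and the outcome is not given here.

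Libraries were grouped by title and, since the design text speaks of 8 hypothalami, treated as separate animals; p-values measure the spread between these samples. By a chi-square test of counts, each pair of libraries in a group differed by more than sampling noise. The genes and lists were chosen with earlier results of these data known. The genes named were the 10 members, their domain partners and, of each list, every gene passing or otherwise up to 4 with the smallest p. For Igf2, H19, Dlk1 and Ndn, the 3 genes with the most similar pattern were also named. Genes called by DESeq2 and genes with deviating libraries were named after their values were seen.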

Additional observations from a re-analysis of the deposited data

Results flagged for a closer look

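In each of 20 groups of 4 libraries (10 genes in PLX3397 and in vehicle) the highest and lowest values were compared with their neighbours, with a gap above Dixon's critical share of the group's range singled out; chance alone singles out about 1 group in 20. It picked out 3, all in vehicle. Mest was 93.7 CPM in vehicle female 1, a gap of 0.960 of the range. Peg3 was 1465 CPM in vehicle male 2, the lowest of its group, with a gap of 0.847. Cdkn1c was 7.62 CPM in vehicle female 2, the lowest of its group, with a gap of 0.832. Their causes were not tested.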

How the results depend on the processing

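The number of genes passing for PLX3397 against vehicle, 362 as reported, was 1097 in DESeq2, 123 without vehicle female 1 and PLX3397 male 2, and 138 to 361 when each library was left out in turn. Shared replicate labels were not taken as pairs in the main fit. Deviations of libraries with the same label correlated weakly, at 0.041 to 0.087. Even so, the vehicle library most like PLX3397 female 1, female 2 and male 2 was that with the same label, unlike for male 1. A replicate block gave 79 genes. Of the 10 genes, 2 passed in DESeq2 and 0 to 1 with a library left out (Igf2, at a log2 fold change of 0.71 without PLX3397 male 1). Of the other imprinted genes and domain partners 3 passed in DESeq2 and 0 to 1 with a library left out (Dcn without vehicle female 1). Of the pathway and imprint control genes 1 passed in DESeq2 and 0 to 2 with a library left out (Igfbp3 and Notch1 without vehicle female 1). Females against males gave 52 genes in DESeq2, against 10 as reported, and 8 to 14 with a library left out. Treatment by sex gave 144 in DESeq2, 1 with a mean FPKM filter of 0.1 and 0 to 19 with a library left out, against 13. The causes were not tested. Over 20 alternatives the log2 fold change of H19 ran from −0.87 to −0.47, of Igf2 from 0.30 to 0.71 and of Cdkn1c from −0.44 to −0.31; Ndn reached 0.014 without vehicle female 1 and PLX3397 male 2. Signs turned for Mest in 2 alternatives and Peg3 in 3, as described, and in none of the 20 for the other 8 genes. With 4 libraries per group, small differences may be missed; H19, with the fewest reads, is the least precise by counting.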

Other observations

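Several imprinted genes and an imprint regulator had a single library, or a few libraries, far from the rest. These genes were picked out after their values were seen. Usp29, a paternally expressed gene of the Peg3 domain, was 133 CPM in PLX3397 female 2 and 131 CPM in vehicle female 1, against 29.6 to 38.3 CPM in the other 6 libraries. Zdbf2, which is expressed from the paternal copy, was 128 CPM in vehicle male 2, against 14.8 to 21.7 CPM in the other 7, and its neighbour Adam23 was 131 CPM in the same library, against 75.6 to 84.7 CPM. Ppp1r9a, a neuronal actin-binding protein gene, was 262 CPM in PLX3397 female 1 and 208 CPM in vehicle female 2, against 117 to 136 CPM elsewhere. Dnmt3a, a DNA methyltransferase gene, was 74.1 CPM in PLX3397 male 1, 98.3 CPM in PLX3397 male 2 and 135 CPM in vehicle male 1, against 196 to 227 CPM in the other 5. The causes were not tested.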
